A study of Mus musculus with 14 samples.

Results

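Integrins are adhesion receptors built from an alpha and a beta subunit, and 8 of their genes were read here in sorted microglia, the resident macrophages of the mouse retina. The genes were taken by name from the authors' table and are 3 of the leukocyte integrins (Itgam, Itgal and Itgb2) and 5 that serve receptors of matrix or vessel-wall ligands (Itgav, Itgb5, Itga6, Itga4 and Itgb1). They are 8 of the 47729 gene identifiers in the tables, and all 8 passed the filter on low counts that left 14279 genes for testing. Each of the 14 SMART-Seq2 libraries came from 1 retina of a wild-type C57BL/6 mouse aged 12 weeks. The groups were 3 retinas injected with microbeads (microbead), which the labels describe as glaucoma, 3 retinas contralateral to such an injection (contralateral), 4 with a sham injection (sham) and 4 without injection (naive). Cells were sorted as CD11b-positive, Ly6c-negative and Fcrls-positive, and a retina gave 100 to 600 of them. CD11b is the protein of Itgam, so reads of that gene in every library follow from the sort. The labels do not say whether libraries with the same number share a mouse, so p-values measure the spread between these libraries.

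An integrin reaches the cell surface as a pair, and the partners decide what it binds. The beta 2 chain of Itgb2 pairs with leukocyte alpha chains, among them the CD11b chain of Itgam, which binds complement fragment iC3b and fibrinogen, and the CD11a chain of Itgal, which binds ICAM adhesion molecules. The alpha V chain of Itgav pairs with beta 1, beta 5 and others on ligands with an Arg-Gly-Asp motif and on latent TGF-beta, while the alpha 6 chain of Itga6 and the alpha 4 chain of Itga4 pair mainly with beta 1 on laminin and on VCAM-1. Microglia are known for high Itgam, Itgb2 and Itgb5. Transcripts do not show which pairs formed on the surface.

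Promoters of 5 of the 8 genes were found in the RefSeq table (Itgam, Itga4, Itgav, Itgb1 and Itgb5). The 250 bases before the start of Itgam and of Itgb5 are shown, since these are the most read leukocyte alpha gene and the most read matrix beta gene of the set. Capitals mark GAGGAA or its reverse complement TTCCTC, the letters of the core bound by the myeloid factor PU.1. Both are on the plus strand of GRCm38.p6, Itgam at chr7:128062390-128062639 and Itgb5 at chr16:33829415-33829664.
Itgam: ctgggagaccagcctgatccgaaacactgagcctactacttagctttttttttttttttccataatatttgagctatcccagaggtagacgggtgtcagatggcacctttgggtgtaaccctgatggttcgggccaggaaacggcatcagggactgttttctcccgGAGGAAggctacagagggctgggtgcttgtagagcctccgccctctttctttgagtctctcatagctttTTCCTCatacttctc
Itgb5: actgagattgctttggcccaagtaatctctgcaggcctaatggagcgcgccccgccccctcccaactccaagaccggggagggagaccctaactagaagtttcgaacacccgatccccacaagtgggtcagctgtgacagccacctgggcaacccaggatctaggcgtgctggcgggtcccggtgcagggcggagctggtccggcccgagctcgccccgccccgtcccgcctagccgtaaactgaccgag
The letters occurred 2 times in the window of Itgam, beginning 84 and 15 bases before the start, 2 times in that of Itgav, 1 time in that of Itgb1 and in neither that of Itga4 nor that of Itgb5. Of 32851 promoter windows of this length, 23.3% held the letters at least 1 time and 3.54% at least 2 times. GC content was 49.6% in the window of Itgam and 65.2% in that of Itgb5.

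Levels were first compared between genes, on the scale of the authors' FPKM, which is per length. Itgb2 was the highest of the 8 genes in 12 of 14 libraries, at 229 to 386 FPKM, and stood above 96.5% or more of the genes tested in each library. Itgb5 followed at 107 to 401 FPKM, first in microbead 1 and contralateral 1 and second in 10 libraries. Itgam had 63.2 to 165.8 FPKM and Itga6 19.6 to 185 FPKM, and their order switched between libraries. Itgav (10.6 to 48.3 FPKM) and Itgb1 (1.4 to 48.2 FPKM) ranked 5 to 7. Itgav lay above Itgb1 in all 3 microbead libraries, and the ranges of these genes overlapped in the other groups. Itga4 reached at most 7.79 FPKM and Itgal at most 6.13 FPKM. Over all libraries the ranges of all neighbours in this order overlapped, also those of Itgb5 with Itgam, Itga6 with Itgav and Itgb1 with Itga4. Itgam stood above Itgb5 in contralateral 2 and sham 2, and Itgal above Itgb1 in contralateral 1. No test of the order within libraries was run.

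**Figure D1:**
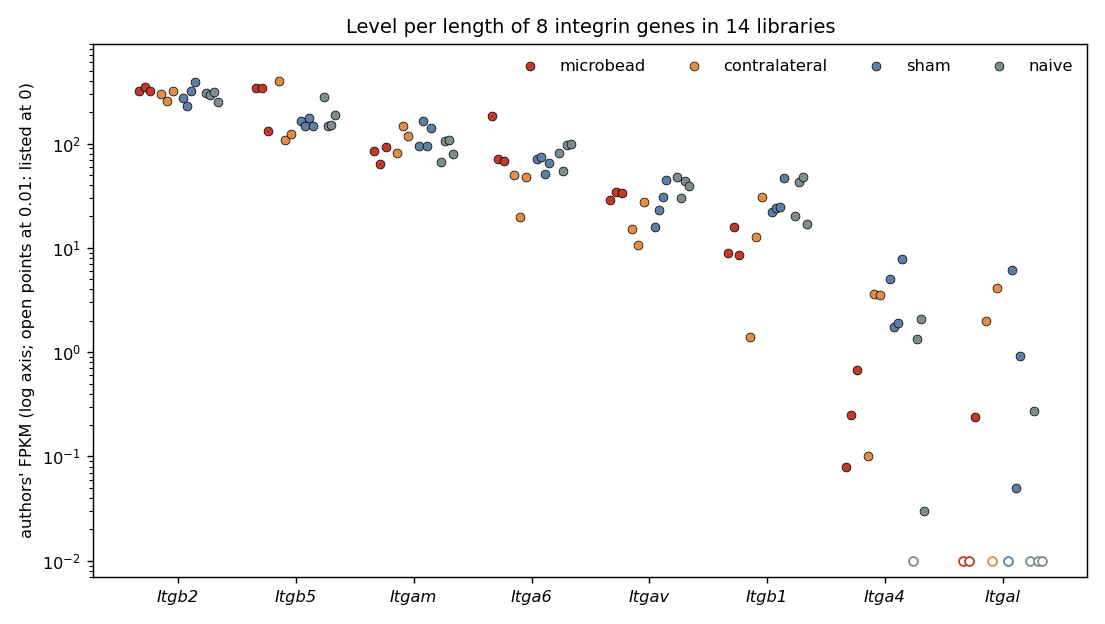
FPKM of each integrin gene (log axis) in the 14 libraries, 1 point per library, coloured by group, with genes ordered by median. Itgb2 and Itgb5 lie above 100 FPKM in every library, Itgav and Itgb1 mostly between 10 and 50, and Itgal is listed at 0 in 7 libraries (open points).

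In the comparison of groups, edgeR's quasi-likelihood test called 0 of the 8 genes at an adjusted p under 0.05, in any of the 6 pairs of groups or in the joint test of the 4 groups. The gene nearest to a call was Itga6, the laminin receptor subunit, which averaged 300.4 ± 136 CPM in microbead, 112 ± 55.4 in contralateral, 156 ± 33.0 in sham libraries and 192 ± 49.3 in naive libraries (SD, n = 3, 3, 4 and 4). Itgav, Itgb1 and Itgb5 had unequal means with wide spreads, and Itgam and Itgb2, the CD11b and CD18 genes, overlapped between all groups in CPM. Among all genes tested, 0.028% passed the adjusted threshold in microbead against contralateral, 0.014% in microbead against sham, 0.21% in microbead against naive and 0.224% in the joint test, and 0 genes passed in the other 3 pairs. At an unadjusted p under 0.05, 1 of the 8 passed in microbead against contralateral (background 11.5% of genes), 3 in microbead against sham (9.75%) and 1 in microbead against naive (10.5%). The number was 0 in contralateral against sham (4.86%), 1 in contralateral against naive (5.18%), 0 in sham against naive (2.66%) and 2 in the joint test (8.17%). DESeq2's Wald test called Itga6 in microbead against contralateral (adjusted p = 0.0253), where it called 683 of the 14279 genes and edgeR 4. It called no other member in any pair, and limma voom called none.

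The 8 genes did not move together. Their median log2 fold change was -0.07 in microbead against contralateral, -0.65 against sham and 0.17 against naive, beside -0.08, -0.12 and -0.14 over all genes tested. In microbead against sham 5 of the 8 were below 0 and 3 above, whereas 54.0% of all genes were below 0.

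**Figure D2:**
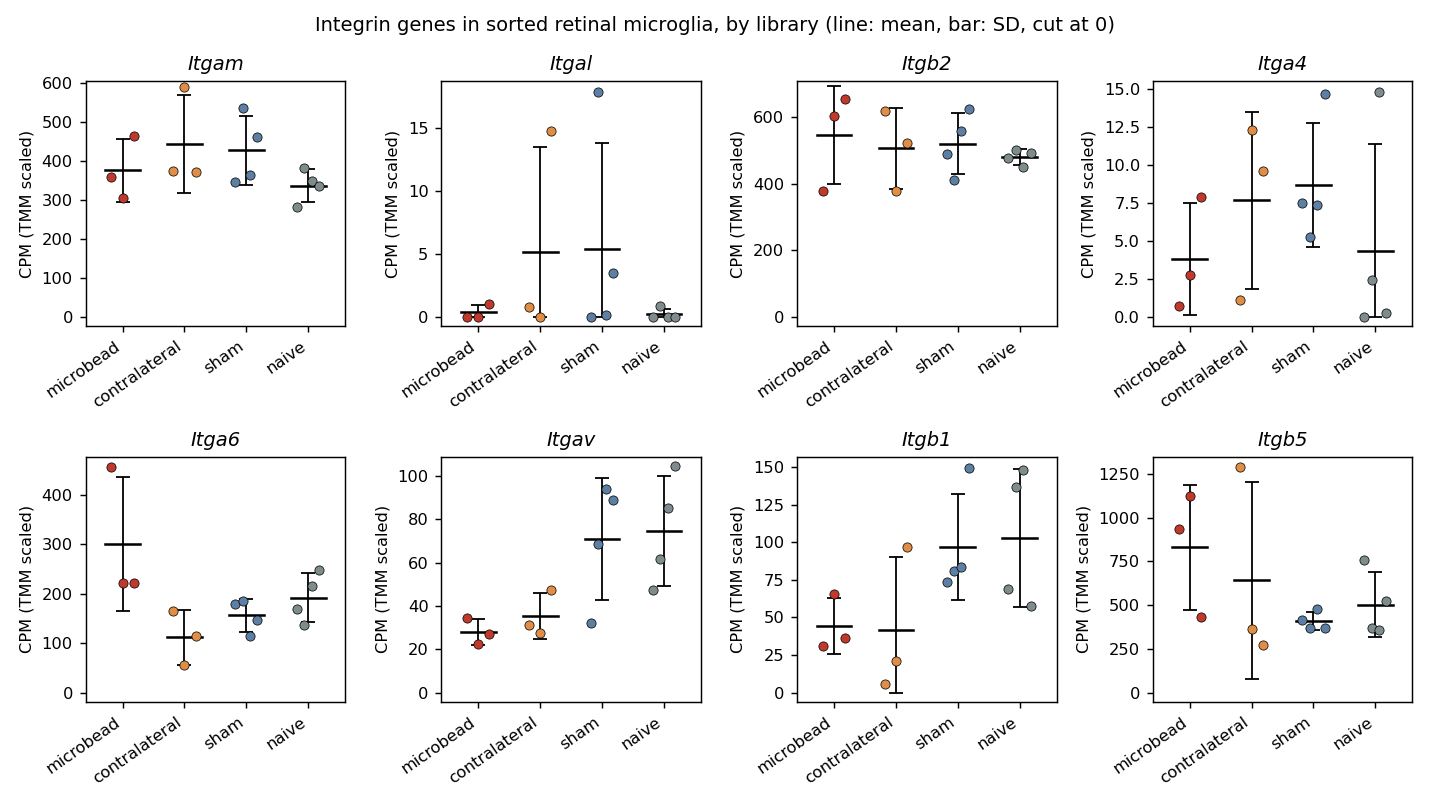
CPM with TMM scaling of the 8 integrin genes, 1 panel per gene and 1 point per library, with group mean and SD (lower bars cut at 0). Itga6 is highest in microbead 1 at 457 CPM, Itgav is lowest as a group in microbead, and Itgam and Itgb2 overlap in all groups.

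Libraries differed in depth and in transcript length, which touches genes of this size. Reads assigned to genes ran from 1340512 to 13995779 per library, with microbead 1 the shallowest. The libraries microbead 1 and contralateral 2 detected 10167 and 10306 genes, against at least 13472 in the rest. Short transcripts were over-represented in the microbead libraries. The median log2 CPM relative to naive of short genes (at most 1000 bases) minus that of long genes (over 4000) was 0.79 to 1.90 in microbead, -0.28 to 0.87 in contralateral, -0.05 to 0.15 in sham and -0.27 to 0.16 in naive libraries. Markers of other cells were read beside the genes. The 10 lymphocyte and natural killer cell genes summed to 0 CPM in microbead, 0 to 0.064 in contralateral, 0.152 to 0.787 in sham libraries and 0 to 0.30 CPM in naive libraries. The 10 monocyte and macrophage genes summed to 76.8 to 182 CPM in microbead, 2.68 to 154 in contralateral, 3.87 to 102 in sham libraries and 2.30 to 35.03 in naive libraries, and the 10 microglia genes to 14738 to 32892, 24924 to 38741, 32713 to 36370 and 21777 to 34556 CPM in the same order of groups. The monocyte sums rested on few genes. Of the 10, 9 were at 0 in microbead 1, 6 in microbead 2, 3 in microbead 3 and 7 to 8 in naive libraries, and 3 were at 0 in all libraries. Rod photoreceptor genes (9) summed to 399 to 3775 CPM in microbead, 2011 to 3422 in contralateral, 732 to 1488 in sham libraries and 208 to 3098 in naive libraries. The 9 Muller glia and astrocyte genes summed to 314 to 454, 309 to 697, 329 to 394 and 306 to 363 CPM in the same order, with Gfap and Sox9 at 0 in all libraries. The 8 neutrophil genes summed to 274 to 631, 468 to 788, 479 to 582 and 359 to 495 CPM. Of these, Csf3r averaged 497 CPM over the 14 libraries, while S100a8, S100a9, Retnlg and Mmp9 were at 0 in all. The part of these cells in the integrin values was not tested. In bulk samples, fewer cells of a type and less RNA per cell cannot be told apart.

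Itgam (ENSMUSG00000030786.18, chr7:128062640-128118491, plus strand, GENCODE M21) encodes CD11b. Its CPM were 359.8, 304 and 464 in microbead, 374, 589.8 and 370.4 in contralateral, 347, 536, 365 and 461 in sham libraries and 281, 382, 347 and 337 in naive libraries. The groups overlapped throughout, and each mean lay between 337 and 445 CPM. Its log2 fold change in microbead was -0.24 against contralateral, -0.19 against sham and 0.16 against naive, and the 95% interval against sham ran from -0.78 to 0.41. Against naive it was 0.40 in contralateral (95% interval -0.19 to 0.99) and 0.34 in sham. With the length trend of each library removed, Itgam was at 1.09 in contralateral and 0.66 in microbead against naive, where the medians over all genes were 0.19 and 0. Over all 14 libraries its coefficient of variation was 22.2%, and 1.11% of the genes with at least 10 CPM had a smaller one. Its mean was 394 CPM, and the comparison was not limited to genes of like level. Per length the picture was less even: the authors' estimated transcript length was greater in microbead (4337 to 4649 bases) than in sham (3687 to 4312), as for 2.68% of genes whose length varies. Itgam then had 63.2 to 92.8 FPKM in microbead, below the 94.1 to 165.8 FPKM of sham, as 10.7% of all genes did. The authors' table gives the name Itgam to 2 identifiers. The other is an overlapping predicted gene in GENCODE M21 with 0 to 188 reads per library, against 501 to 7632 for Itgam itself, and it was not added in the values above.

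Itgb2 (ENSMUSG00000000290.13, chr10:77530252-77565708, plus strand) encodes CD18, the beta chain of all leukocyte integrins of this family. It had 378, 604 and 655 CPM in microbead, 618, 377 and 524 in contralateral, 489.9, 410.0, 558 and 624 in sham libraries and 477, 502, 449 and 491 in naive libraries. In CPM the groups overlapped, with the 2 lowest values in microbead 1 and contralateral 2, the libraries with few genes. Itgb2 had 317 to 347 FPKM in microbead, above the 250 to 314 FPKM of naive, and the share of all genes that parted so was not counted. Its log2 fold change in microbead was 0.11 (SE 0.27) against contralateral, 0.07 (SE 0.26) against sham and 0.19 (SE 0.26) against naive. The 95% interval of the last ran from -0.38 to 0.76, so a change of 1 log2 unit lay outside it in either direction. With a coefficient of variation of 17.8% it was the steadiest of the 8 genes, below all but 0.264% of genes with at least 10 CPM. Its mean was 511 CPM, and the comparison was not limited to genes of like level. The ratio of Itgb2 to Itgam in FPKM was 3.42 to 5.49 in microbead, 1.76 to 3.68 in contralateral, 1.38 to 3.38 in sham libraries and 2.74 to 4.59 in naive libraries. Per length the 3 microbead libraries thus lay above all 4 sham libraries, a description for which no share over other gene pairs was counted. In CPM the same ratio was 1.05 to 1.99 in microbead and 0.765 to 1.53 in sham, which overlapped. Estimated lengths in microbead were longer for Itgam and shorter for Itgb2 than in any sham library. Of genes whose length varies, 2.68% were longer and 3.91% shorter in this way.

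Itgal (ENSMUSG00000030830.18, chr7:127296260-127335138, plus strand) encodes CD11a, the alpha chain with which lymphocytes and monocytes hold on to ICAM molecules. It had 0, 0 and 12 reads in microbead, 4, 0 and 231 in contralateral, 0, 254, 2.1 and 49 in sham libraries and 0, 11, 0 and 0 in naive libraries. Most reads therefore lay in contralateral 3 (14.8 CPM) and sham 2 (17.8 CPM). In the 7 libraries with 0 reads, the limit that a count of 0 allows (3 reads) was 0.239 to 2.15 CPM, the last in microbead 1. The spread between libraries was wide, from 0 reads in naive 4 (limit 0.247 CPM) to those 2 libraries, and the test resolved no difference between groups: the SE of its log2 fold change was 2.87, 2.81 and 2.39 in the comparisons of microbead with contralateral, sham and naive. Lymphocyte genes summed to 0.064 CPM in contralateral 3 and 0.562 CPM in sham 2, whereas the monocyte list stood at 154 and 102 CPM in them. The monocyte list was highest in microbead 2, at 182 CPM, where Itgal had 0 reads. It was at 128 CPM in microbead 3 with 12 Itgal reads and at 88.7 CPM in sham 3 with 2.1. The part of monocytes was not tested.

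Itgav (ENSMUSG00000027087.11, chr2:83724397-83806916, plus strand) encodes the alpha V chain of the receptors for vitronectin and latent TGF-beta. It had 34.5, 22.6 and 27.2 CPM in microbead, 31.2, 27.3 and 47.3 in contralateral, 32.1, 68.6, 93.9 and 88.9 in sham libraries and 47.3, 61.7, 85.3 and 104.8 in naive libraries. All 3 microbead libraries lay below all 4 naive libraries, as 6.98% of all genes did, and they overlapped with sham only through sham 1. The log2 fold change in microbead was -1.42 against naive (SE 0.52, unadjusted p = 0.0146, adjusted p = 0.350) and -1.34 against sham (SE 0.52, adjusted p = 0.425) in edgeR's test, and neither passed. All 3 contralateral libraries also lay below all 4 naive libraries (background 3.73%), though contralateral 3 and naive 1 both had 47.3 CPM. Their log2 fold changes were -1.08 against naive (SE 0.52, adjusted p = 0.955) and -1.01 against sham (SE 0.51, adjusted p = 0.963).

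The estimated transcript length of Itgav was short in the microbead libraries. The annotation holds 9 transcripts of the gene, of 444 to 7054 bases, and the tables give each library an estimated mean length over them. It was 1497, 847.5 and 951 bases in microbead, 2058, 2425 and 2229 in contralateral, 2422, 3449, 3487 and 2497 in sham libraries and 1286, 2564, 2524 and 2983 in naive libraries. It was thus shorter in every microbead library than in any contralateral or sham library, as for 2.81% and 3.91% of the genes whose length varies, and naive 1 lay within the microbead range. Short transcripts were over-represented over all genes in the microbead libraries (above), and the part of this in the Itgav lengths was not tested. Per length the order changed: Itgav had 28.4, 34.0 and 33.3 FPKM in microbead, 15.2, 10.6 and 27.4 in contralateral, 15.9, 22.9, 30.4 and 44.3 in sham libraries and 48.3, 29.7, 43.7 and 39.4 FPKM in naive libraries. With each library's effective length as an offset, an alternative chosen after seeing the data, the log2 fold change in microbead was 0.40 (SE 0.50) against sham, 1.04 (SE 0.54) against contralateral and -0.10 (SE 0.50) against naive. The direction of Itgav in microbead against sham and against contralateral therefore turned with these offsets. With the length trend of each library removed instead, the direction stayed. The log2 fold change was then -0.76 against sham, -0.13 against contralateral and -0.84 against naive, where the medians over all genes were 0.00, -0.22 and 0.

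**Figure D3:**
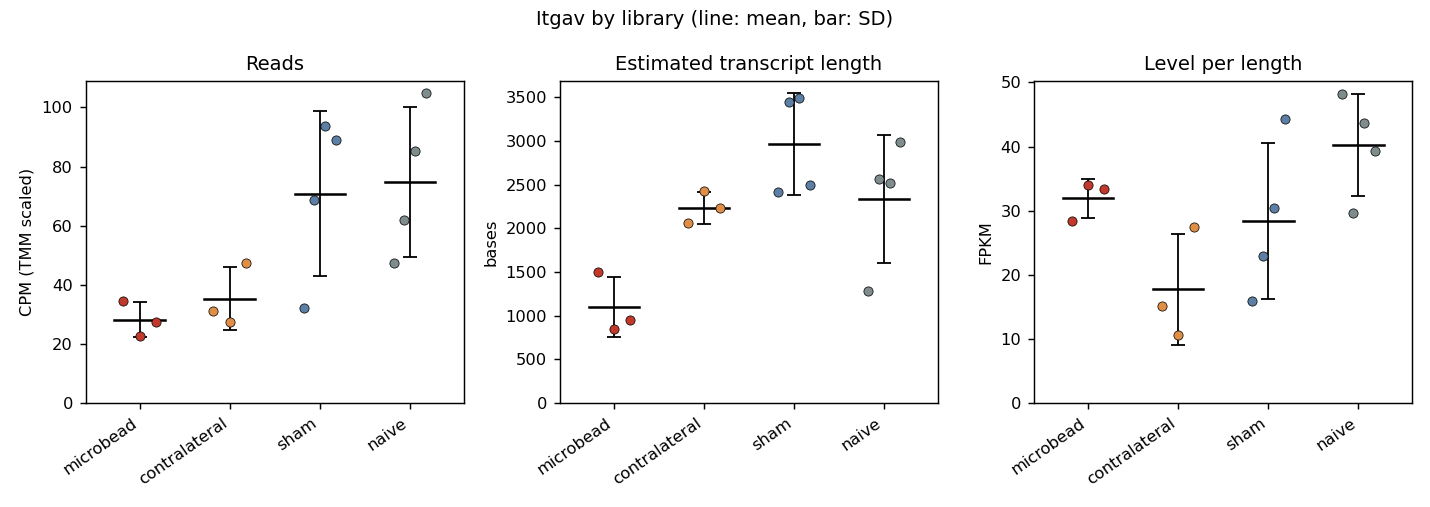
Itgav in each library as CPM, as the authors' estimated transcript length in bases and as FPKM, with group mean and SD. Microbead libraries hold few reads (22.6 to 34.5 CPM) on short estimated transcripts (847.5 to 1497 bases), which gives 28.4 to 34.0 FPKM, within the range of sham.

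Itgb5 (ENSMUSG00000022817.14, chr16:33829665-33949338 in GENCODE M21, plus strand) encodes the beta 5 chain, a partner of alpha V that in the retinal pigment epithelium binds shed photoreceptor outer segments. It had 935, 1126 and 434 CPM in microbead, 1289, 362 and 274 in contralateral, 414, 368, 476 and 369 in sham libraries and 758, 372, 360.1 and 521 in naive libraries. The high values were in microbead 1 and 2, contralateral 1 and naive 1, while the 4 sham libraries lay close together. In microbead the log2 fold change was 1.03 against sham (SE 0.44, unadjusted p = 0.0300, adjusted p = 0.458), 0.73 against naive (SE 0.44) and 0.38 against contralateral (SE 0.47) in edgeR's test, and the groups overlapped in all 3. Without contralateral 1 the log2 fold change of microbead against contralateral was 1.44, and that of contralateral against sham was -0.43, where all libraries gave 0.66. Without contralateral 3 that of microbead against contralateral was 0.0077, and leaving out microbead 2, microbead 3 or contralateral 2 gave 0.14, 0.74 and 0.13. Markers of the retinal pigment epithelium, which also uses the gene, summed to at most 10.04 CPM in any library. The part of these cells in the Itgb5 values was not tested. Estimated lengths of Itgb5 hardly varied, at 2758 to 3087 bases over all libraries.

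Itga6 (ENSMUSG00000027111.15, chr2:71745616-71858416, plus strand) encodes the alpha 6 chain of laminin receptors. It had 457, 223 and 221 CPM in microbead, 165, 54.9 and 115 in contralateral, 179, 185, 114 and 147 in sham libraries and 170.2, 136, 215 and 248 in naive libraries. Every microbead library lay above every contralateral and every sham library, as 5.20% and 5.11% of all genes did in these comparisons, and 1 naive library lay above 2 of the microbead libraries. The log2 fold change in microbead was 1.42 against contralateral (SE 0.42, unadjusted p = 0.00331, adjusted p = 0.197), 0.94 against sham (SE 0.38, adjusted p = 0.444) and 0.64 against naive (SE 0.38, adjusted p = 0.580) in edgeR's test. DESeq2's Wald test, which called 683 of all genes in this comparison, gave 1.54 against contralateral with an adjusted p of 0.0253. Over all alternatives the adjusted p of Itga6 in this comparison ran from 0.0253 to 1.00, the last with the 2 compared groups alone. Contralateral stood lowest, with -0.78 against naive (SE 0.39, adjusted p = 0.955).

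The highest and the lowest Itga6 values came from the libraries with few genes, microbead 1 and contralateral 2. Without both, the log2 fold change in microbead was 0.67 against contralateral (adjusted p = 0.632), 0.48 against sham and 0.19 against naive. Without microbead 1 alone it was 1.02, 0.48 and 0.19 against the same groups. With the length trend of each library removed it was instead 1.81 against contralateral, 1.62 against sham and 1.34 against naive, where the medians over all genes were -0.22, 0.00 and 0.00, and the adjusted p were 0.226, 0.480 and 0.417. Estimated lengths of Itga6 overlapped between groups, and in FPKM microbead (68.0 to 185) stayed above contralateral (19.6 to 50), as for 4.12% of genes, but overlapped with sham (50.6 to 74.1). The 10 endothelial and pericyte genes summed to 1.93 to 32.7 CPM in microbead, 21.2 to 43.4 in contralateral, 3.44 to 7.30 in sham libraries and 6.29 to 56.3 CPM in naive libraries. That list was at 7.18 CPM in microbead 1, the library with the most Itga6. There 8 of its 10 genes were at 0, and a count of 0 allows up to 2.15 CPM per gene. The part of these cells in the Itga6 values was not tested.

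Itga4 (ENSMUSG00000027009.18, chr2:79255426-79333123, plus strand) encodes the alpha 4 chain through which leukocytes bind VCAM-1 on vessels. It had 0.718, 2.79 and 7.91 CPM in microbead, 1.14, 12.3 and 9.60 in contralateral, 7.47, 5.27, 7.36 and 14.7 in sham libraries and 0, 2.40, 14.8 and 0.247 in naive libraries. In CPM the groups overlapped, and 4 libraries held 6 reads or fewer. The log2 fold change in microbead was -0.99 against contralateral, -1.16 against sham and -0.17 against naive with SEs of 1.67 to 1.80, and the 95% interval against sham ran from -4.98 to 2.66. Per length microbead parted from sham, but on few reads: microbead 1, 2 and 3 held 1, 25 and 90. In microbead 1 the 0.718 CPM lay under the limit that a count of 0 allows there, 2.15 CPM. The estimated transcript length of Itga4 was 9767 bases in all 3 microbead libraries and 1852 to 4284 bases in sham (longer without overlap, as for 2.68% of genes whose length varies). Itga4 had 0.08, 0.25 and 0.68 FPKM in microbead and 5.06, 1.73, 1.91 and 7.79 FPKM in sham libraries, and such a lower level without overlap was found for 10.7% of all genes. With effective-length offsets the log2 fold change in microbead was -2.54 (SE 1.91) against contralateral, -3.28 (SE 1.92, adjusted p = 0.572 in edgeR's test) against sham and -0.98 (SE 1.73) against naive.

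Itgb1 (ENSMUSG00000025809.15, chr8:128685654-128733200, plus strand) encodes the beta 1 chain, the common partner of alpha 4, alpha 6 and alpha V. It had 30.9, 65.8 and 36.6 CPM in microbead, 5.70, 21.3 and 97.2 in contralateral, 73.6, 81.0, 83.8 and 149.6 in sham libraries and 68.9, 136.6, 148.5 and 57.9 in naive libraries. Every microbead library lay below every sham library, as 7.08% of all genes did, and the contralateral libraries were spread widely, with the lowest value of all in contralateral 1. The log2 fold change in microbead was -1.12 against sham (SE 0.69, adjusted p = 0.621) and -1.21 against naive (SE 0.69, adjusted p = 0.555) in edgeR's test, neither of which passed. In contralateral it was -1.22 against sham (SE 0.69) and -1.31 against naive (SE 0.69), and -2.85 and -2.93 without contralateral 3. Against contralateral the value in microbead was 0.10 (SE 0.72), and it was 1.72 without contralateral 3. With the length trend of each library removed, the log2 fold change in microbead was -0.77 against sham, -0.83 against naive and 0.18 against contralateral. The medians over all genes were then 0.00, 0 and -0.22.

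**Figure D4:**
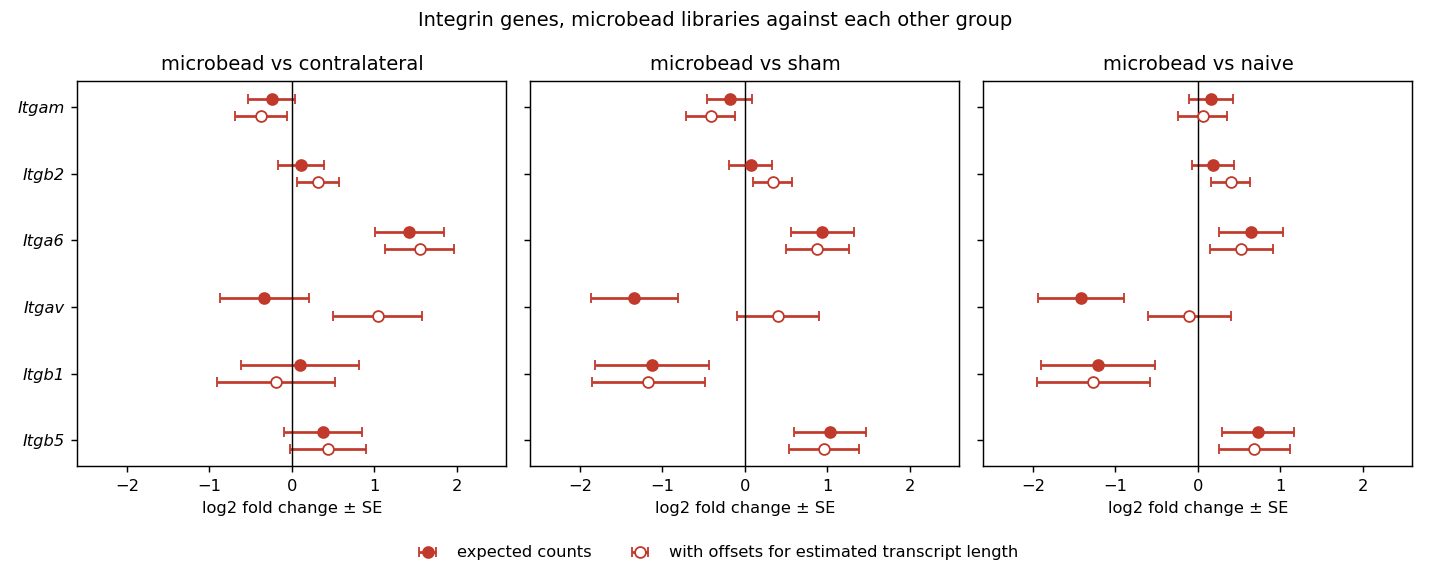
Log2 fold change ± SE of 6 integrin genes in microbead libraries against contralateral, sham and naive libraries, from the expected counts (filled) and with offsets for each library's effective length (open); Itgal and Itga4 are left out for their SE above 1.5. Of the 6 genes shown, Itgav is the one whose values move most, from -1.34 to 0.40 against sham.

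Set against each other within a library, the 3 beta chains had unequal shares of their summed FPKM. Itgb1 made up 1.34 to 2.24% in microbead, 0.20 to 6.50% in contralateral, 4.74 to 8.04% in sham libraries and 3.33 to 9.40% in naive libraries. Its share was thus lower in every microbead library than in any sham or naive library. This is a description for which no test across genes was run and no share over other genes was counted. Short transcripts were over-represented in the microbead libraries (above), and the part of this in the Itgb1 share was not tested. Itgb5 made up 28.7 to 51.2% in microbead, 26.1 to 57.4% in contralateral, 25.4 to 36.5% in sham libraries and 29.3 to 46.2% in naive libraries. The ratio of Itga6 to Itgb1 in FPKM was 4.53 to 20.7 in microbead, 1.54 to 35.7 in contralateral, 1.38 to 3.21 in sham libraries and 1.29 to 5.91 in naive libraries, with the highest value in contralateral 1, where Itgb1 was lowest.

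**Figure D5:**
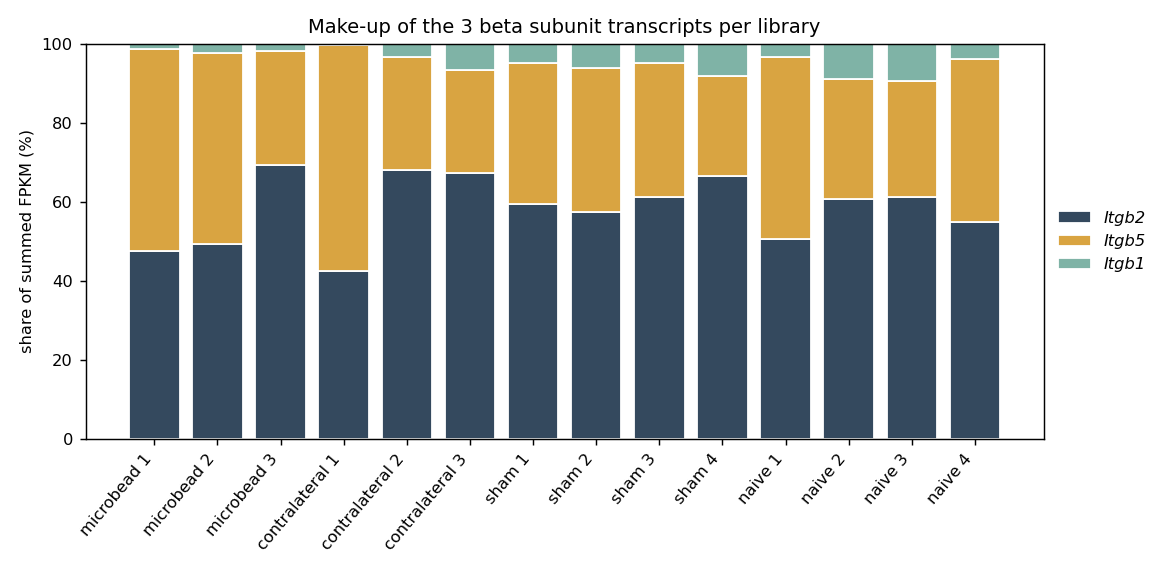
Share of Itgb2, Itgb5 and Itgb1 in their summed FPKM (%), 1 bar per library. Itgb1, on top, takes at most 2.24% in microbead libraries, 0.20 to 6.50% in contralateral libraries and at least 3.33% in sham and naive libraries. No share over other genes was counted.

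Correlations over the 14 libraries describe which genes followed the members, with the libraries' depth and length bias shared by all points. Among the members, the log2 CPM of Itgb5 ran against that of Itga4 (Pearson r = -0.64) and of Itgb1 (r = -0.61), and the highest r were 0.59 for Itgav with Itgb1 and 0.58 for Itgam with Itga4. Of about 8136 named genes with a mean of at least 10 CPM, predicted genes, RIKEN clones and pseudogenes left out, those closest to Itgam were Usp5 (r = 0.88), Suclg1 (0.85) and Rhoh (0.83). Those closest to Itgb2 were Ccdc97 (r = 0.89) and Oasl1 (0.88), and those closest to Itgav were Il1rl1 (r = 0.87), Pdik1l (0.81) and Xpnpep3 (0.80). Itgb5 was followed by Snrpg (r = 0.92), Usp35 (0.91) and Smad7 (0.89). For Itga6 they were Gps2 (r = 0.90), Hk2 (0.90) and Baz1b (0.89), and those close to Itgb1 included Sept2 (r = 0.93) and Lamp2 (0.92). Itga4 was followed by P4hb (r = 0.92), Atp6ap1 (0.87) and Dock10 (0.87), and Itgal by Gpr137b (r = 0.77), Adgre1 (0.72) and Idi1 (0.69).

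Other genes of integrin biology were read from 3 lists. Of 19 other integrin genes, 7 passed the filter on low counts. Of 36 genes for integrin activation and adaptors 29 passed it, and of 30 genes for ligands and matrix 15. edgeR's test called no gene of these lists at an adjusted p under 0.05 in any pair of groups or in the joint test. In microbead against sham, an unadjusted p under 0.05 was reached by 1 of 7, 3 of 29 and 2 of 15 genes, where 9.75% of all genes did. The corresponding medians of log2 fold change were 0.53, 0.22 and 1.00, against -0.12 over all genes tested. In microbead against contralateral 3 of 7, 6 of 29 and 4 of 15 reached it (background 11.5%), with medians of 2.67, -0.38 and 0.21 beside -0.08 over all genes, so the adaptors had medians of opposite sign in these comparisons. In microbead against naive 0 of 7, 7 of 29 and 3 of 15 reached it (background 10.5%), with medians of 0.40, 0.23 and 0.22 beside -0.14. Some of the 7 other integrins had few reads. Itga8 averaged 2.58 CPM and was at 0 in 9 libraries, with 8.98 (SE 3.84) in microbead against contralateral. Itgae averaged 4.53 CPM and was at 0 in 4 libraries.

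The most read genes of each list were as follows. Itgb3, which encodes another partner of alpha V, averaged 117 ± 77.7 CPM in microbead, 126 ± 61.3 in contralateral, 86.95 ± 15.3 in sham libraries and 88.3 ± 43.8 in naive libraries. Itgax, which encodes the CD11c chain, averaged 62.9 ± 48.9, 9.95 ± 11.3, 43.1 ± 16.5 and 13.6 ± 13.5 CPM in the same order. Every microbead library lay above every contralateral library for Itgax, as for 5.20% of all genes, at 2.67 on the log2 scale (SE 1.23, adjusted p = 0.425 in edgeR's test). Itga5, a fibronectin receptor subunit, averaged 21.1 ± 18.4 CPM in microbead, 57.8 ± 34.7 in contralateral, 23.2 ± 21.8 in sham libraries and 25.1 ± 13.7 in naive libraries.

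Among the adaptors, Lyn, a Src-family kinase downstream of integrins, averaged 210.3 ± 116 CPM in microbead, 479.8 ± 210.3 in contralateral, 492 ± 118 in sham libraries and 425 ± 100.3 in naive libraries. Its log2 fold change was -1.22 against sham (SE 0.40, adjusted p = 0.302 in edgeR's test), and every microbead library lay below every sham library, as for 7.08% of all genes. Fyb, an adaptor that couples receptor signals to integrin activation, averaged 574 ± 235 CPM in microbead and 261.5 ± 38.7 in sham libraries, or 1.13 on the log2 scale (SE 0.31, adjusted p = 0.168), also without overlap (5.11% of all genes were higher in this way). Fermt3, the kindlin that activates integrins in blood cells, averaged 422 ± 107 CPM in microbead, 548 ± 171 in contralateral, 339 ± 50.4 in sham libraries and 348 ± 24.3 in naive libraries. Of the ligand genes, F11r averaged 648 ± 231, 833 ± 266, 750.4 ± 133 and 573 ± 12.5 CPM in the same order of groups. Nrros, which anchors latent TGF-beta on microglia for release by alpha V integrins, averaged 204 ± 67.0, 305 ± 67.7, 265 ± 35.5 and 309 ± 92.8 CPM, and the Itgal and Itgam ligand gene Icam1 averaged 189 ± 61.7, 190.5 ± 31.1, 152 ± 14.5 and 125 ± 35.7 CPM.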

How the data were processed

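Per the labels, microglia were sorted from single retinas and sequenced by SMART-Seq2. The deposited tables hold expected counts, that is the authors' estimated number of reads of a gene with no scaling, and FPKM, which the authors divided by effective length and by mapped reads. Per the submitters' processing notes, Salmon 1.4.0, R 4.0.3, DESeq2 1.30.1 and mm10 were used, in roles not given in the sources used here. After rounding, edgeR 4.0.16 (under R 4.3.3) filtered the expected counts with filterByExpr at a minimum count of 10, scaled them with TMM and modelled the 14 libraries together by group with robust glmQLFit. That model had 10 residual degrees of freedom and a biological coefficient of variation near 1.13. Two-sided glmQLFTest compared each pair of groups, and the 4 groups jointly, adjusting p by Benjamini-Hochberg over 14279 genes. SE is the log2 fold change over the root of F. The 95% intervals use 10 degrees of freedom. The limit for a count of 0 is 3 reads, and as reads are PCR copies it covers counting error only. Alternatives were other scaling, filters and tools (DESeq2 1.42.0, limma 3.58.1 voom), a replicate block, a length trend (lowess, span 0.5) taken out, groups or libraries left out, and, after seeing the data, effective-length offsets and both Itgam identifiers summed. The procedure was tested on simulated data. Members and lists were chosen with earlier results of these data known. List genes named are those past the threshold or else the 3 with the highest mean CPM, and correlated genes the 3 with the highest r, some of which are not reported here.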

Additional observations from a re-analysis of the deposited data

Results flagged for a closer look

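Values were looked at in the 2 groups with 4 libraries, in CPM and FPKM, for a library that stood far from the other 3; of 32 such tests, chance alone would mark about 1 in 20. Itgal was at 6.13 FPKM in sham 2, where the other sham libraries had 0 to 0.91 FPKM. Naive 2 had 0.824 CPM and 0.27 FPKM of Itgal, from 11 reads, while the other naive libraries had 0, so that any read would have stood apart and the chance rate does not apply. Itga4 was at 14.8 CPM in naive 3, where the other naive libraries had 0 to 2.40 CPM. Itgb1 was at 149.6 CPM and 46.6 FPKM in sham 4, where the other sham libraries had 73.6 to 83.8 CPM and 22.0 to 24.6 FPKM.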

How the results depend on the processing

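Itgal and Itga4 had the widest SE of the 8 genes, and in the shallowest library, microbead 1, a count of 0 allows up to 2.15 CPM; the causes were not tested. Over 12 alternative settings 28 of 572 log2 fold changes of the members were of opposite sign, and 1 moved past the threshold in the same direction (Itga6 in microbead against contralateral with DESeq2's Wald test). Leaving out 1 library gave 0 calls of a member in 660 values. The number of integrin genes past the threshold was 0 under every setting except DESeq2's Wald test in microbead against contralateral, where it was 1.

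The number of all genes called, in microbead against contralateral, sham and naive, was 4, 2 and 30. It was 683, 469 and 580 with DESeq2's Wald test, 157, 139 and 162 with no filter, 2, 91 and 194 with limma voom, and 0, 1 and 1 with the length trend removed. It was 0, 0 and 5 with the compared groups alone, 9 and 7 (against contralateral and sham) without the libraries with few genes, and 1 and 0 with effective-length offsets. The size factors of DESeq2 gave 46 against naive. In contralateral against sham, contralateral against naive and sham against naive, edgeR's 0 became 68, 69 and 28 with DESeq2's Wald test and 22, 21 and 14 with no filter; at an unadjusted p under 0.05 edgeR had 694, 740 and 380. Leaving out 1 library gave 0 to 162, 0 to 134 and 0 to 168 genes in the 3 microbead comparisons, the upper values without microbead 3, and 0 to 21, 0 to 11 and 0 in the other 3.

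Replicate numbers were not taken to pair the libraries, since the condition that every same-numbered pair correlate above 0.1 was not met. That condition covered all 19 same-numbered pairs of the 4 groups. Its failure therefore cannot tell whether microbead and contralateral libraries of the same number share a mouse. Deviations of same-numbered libraries correlated at -0.05 to 0.11 (median 0.013), highest between contralateral 3 and naive 3. Microbead 1, 2 and 3 correlated with the same-numbered contralateral library at 0.018, -0.039 and 0.087. Of 14 libraries, 7 correlated best with their own number, a hint from the data and not from the design, with no chance rate worked out. The replicate block gave 0, 0 and 1 gene in the microbead comparisons and 0 integrin genes. With it Itga4 was at 0.48 in microbead against naive, Itgal at 2.41 and Itgb2 at 0.020 in contralateral against sham, and Itgb1 at 0.015 in sham against naive.

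Other log2 fold changes of opposite sign were mostly near 0. Itgam in contralateral against sham was -0.038 with no filter, -0.021 with at least 50 reads, -0.23 without the libraries with few genes, -0.018 without identifiers absent from the authors' table, -0.015 in these groups alone, -0.11 with limma voom and -0.039 with effective-length offsets. In the same comparison Itgal was 0.54, 1.56 and 0.18 and Itgb2 0.10, 0.053 and 0.018 without the libraries with few genes, with limma voom and with effective-length offsets. With the length trend removed Itgb2 was 0.29 and Itga4 0.55 there, Itgam was 0.27 in microbead against sham and Itga4 was 0.23 in microbead against naive. Itga4 in microbead against naive was 0.24 without the libraries with few genes and 0.69 with limma voom. In microbead against contralateral, Itgam was 0.044 and Itgb1 -0.054 without the libraries with few genes, and with effective-length offsets Itgb1 was -0.19 and Itgav 1.04; Itgav was 0.40 against sham. Removal of the length trend put the median of all genes at 0.21 in contralateral against sham and 0.19 in contralateral against naive, where it was -0.04 and -0.06 without.

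Leaving out 1 library turned the sign of some values. In microbead against contralateral the ranges were -0.36 to 0.017 for Itgam, -8.76 to 0.044 for Itgal, -0.058 to 0.35 for Itgb2 and -0.42 to 1.72 for Itgb1. Against sham Itgb2 ran from -0.10 to 0.25, and against naive Itgam ran from -0.040 to 0.26, Itgal from -4.22 to 5.02 and Itga4 from -1.30 to 2.11. In contralateral against sham they were -0.23 to 0.19 for Itgam, -3.79 to 0.54 for Itgal, -0.26 to 0.10 for Itgb2, -0.68 to 0.26 for Itga4 and -0.43 to 1.02 for Itgb5. In contralateral against naive they were -0.14 to 0.22 for Itgb2 and -0.73 to 0.72 for Itgb5, and in sham against naive -0.24 to 0.16 for Itgav and -0.37 to 0.14 for Itgb1.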
